A study of Mus musculus with 6 samples.

Results

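Cytosolic ribosomal proteins were followed in the hippocampus of mice lacking inhibitor-1 and of wild-type mice. They were taken as every probe set that the platform annotation gives exactly 1 symbol made of Rpl or Rps, digits and at most one letter a or x, together with Rplp0, Rplp1, Rplp2 and Rpsa. That gave 94 of the 45101 probe sets on the array, for 42 of 18194 genes with a probe set of their own, 22 of the large subunit (42 probe sets) and 20 of the small subunit (52 probe sets). A RefSeq gene table lists 76 protein-coding mouse genes whose symbols follow the same pattern. Of the others, 27, Rplp1 among them, were met here only in probe sets with several symbols and 7 in no probe set, and these are not named with values.

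Total RNA of hippocampus was hybridised to 1 single-colour array per sample, 3 from inhibitor-1 knockout mice and 3 from wild-type mice. Inhibitor-1 is the product of Ppp1r1a and blocks protein phosphatase 1 once protein kinase A has phosphorylated it. The labels give genotype, tissue and a replicate number, but no strain, age, sex or targeting construct, and do not say whether the arrays of a group come from different animals. The p-values therefore rest on array-to-array spread, part or all of which may be technical. The comparison asks which transcripts differ when inhibitor-1 is missing.

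The ribosome is built from ribosomal RNA and a set of proteins, nearly all of them present in a single copy, which the cell needs in matched amounts. In vertebrates their mRNAs begin with a C and a run of further pyrimidines, the 5′ terminal oligopyrimidine (TOP) tract, through which mTOR controls their translation together. The chain from protein kinase A to protein phosphatase 1 reaches this machinery at the protein level: ribosomal protein S6 is phosphorylated by S6 kinases at its C-terminal tail, and protein phosphatase 1 is one of the enzymes that remove the phosphate. Arrays measure mRNA and carry no information on phosphorylation. In brain, ribosomal protein mRNAs are abundant in neurons and glia, and several, such as Rplp0, Rpl13a and Rps18, are widely used as reference genes.

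Pyrimidine runs near the annotated start are shown for 8 of the genes described below, since a TOP tract is the sequence feature for which the family is known. They are matches of letters and were not shown to be the tract itself. RefSeq promoter windows (assembly GRCm38.p6) matched 37 of the 42 genes, and each was searched from 50 bases before to 50 bases after the annotated start for 4 short pyrimidine motifs, spelled out with their shares below, which can overlap one another. In the lines below each 30-base stretch runs 5′ to 3′ on the transcript's strand, and the capitals mark the unbroken run of C and T that holds the motif nearest to the start.
Rpl11: gTCTCCCTCTCTCTTCCTgttctccaccat
Rpl10a: gcgctctgCCTTCTTTCCggtttccgcggc
Rpl35: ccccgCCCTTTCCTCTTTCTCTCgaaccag
Rplp2: ctgcgtcagcgTCTTCCTTTCgccgccgga
Rpl13a: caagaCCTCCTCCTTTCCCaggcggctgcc
Rps6: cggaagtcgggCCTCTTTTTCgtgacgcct
Rps15: gcgcagcccgtaCTTCCTTTTCCgagtaac
Rps26: agccgccggaTCCTCTTTCgagtcttggct

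On GRCm38.p6 these stretches lie at chr4:136053352-136053381 (minus strand) for Rpl11, chr17:28328574-28328603 (plus) for Rpl10a, chr2:39005114-39005143 (minus) for Rpl35 and chr7:141447635-141447664 (plus) for Rplp2. The stretch of Rpl13a lies at chr7:45128719-45128748 (minus), that of Rps6 at chr4:86857350-86857379 (minus), that of Rps15 at chr10:80292444-80292473 (plus) and that of Rps26 at chr10:128626484-128626513 (minus). Counting the annotated start as base 1 and the base before it as -1, the run in capitals begins at base -7 in Rpl35, -5 in Rplp2, -1 in Rps6, 3 in Rpl13a, 4 in Rps26, 14 in Rpl11, 18 in Rpl10a and 26 in Rps15, and several runs begin with T. At least 1 of the 4 motifs was found on the transcript's strand in 24 of the 37 genes (64.9%), against 19.4% of 26969 genes outside the family. On the opposite strand the shares were 16.2% for the ribosomal protein genes and 19.4% for the others. By single motif on the transcript's strand, CTTTCC was found in 29.7% of the ribosomal protein genes and 5.38% of the others, CTCTTT in 24.3% and 4.62%, CTTCCT in 24.3% and 8.43%, and CTTTTC in 16.2% and 4.29%. On the opposite strand these shares were 2.70% and 5.13% for CTTTCC, 0% and 4.47% for CTCTTT, 8.11% and 9.41% for CTTCCT, and 5.41% and 3.88% for CTTTTC. Another motif searched, CCGGAAGT, is no pyrimidine run. It was found in 5.41% and 1.58% on the transcript's strand and in 2.70% and 1.29% on the opposite strand. A match describes the letters only, and annotated starts need not be the starts used in hippocampus.

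The knockout label was checked first. Ppp1r1a had intensities of 272, 249 and 347 on the knockout arrays, against 9061, 8370.2 and 10345 on the wild-type arrays. All 3 knockout arrays were lower, with a log2 change of -4.93 (SE 0.18) and an adjusted p of 3.58e-07 by limma. The sources used here do not say which part of the gene was removed, so whether the probes fall inside it is unknown. Neuronal markers were bright on every array (mean log2 signal of 21 probe sets of 9 genes, 14.36 to 14.41 in knockout and 14.46 to 14.53 in wild type).

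Values below are log2(intensity + 16), called log2 signal, and changes are knockout minus wild type on that scale, which understates changes of dim probe sets. Each probe set has its own affinity, so signals are compared only within a probe set. The 40% of all probe sets with the lowest mean signal were left out, which kept 82 of the 94 ribosomal protein probe sets, for 41 genes. The 12 left out belong to Rps18 (3 probe sets) and to Rpl27a, Rpl35, Rps3, Rps4x, Rps6, Rps16, Rps20, Rps24 and Rpsa, with 1 each. Rps16 is the 1 gene with no tested probe set.

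No ribosomal protein transcript passed the test between knockout and wild type, in either direction. Of the 82 probe sets, 0 passed a limma adjusted p under 0.05, where 0.0111% of all 26999 tested probe sets passed (3, all lower). The lowest adjusted p of any member was 0.988. At an unadjusted limma p under 0.05 there were 2 lower members, Rpl11 and Rpl8 (2.44%, against 2.21% of all tested probe sets), and 0 higher ones, against 2.17% of all tested probe sets. The median change of the 82 was -0.03, against 0.004 over all tested probe sets, and single changes ran from -0.67 to 0.40.

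The interval of each change shows how closely the signal of a probe set was measured on these arrays. It rests on array-to-array spread and does not bound the transcript itself. Whether bright signals follow mRNA amounts in proportion was not tested. For 60 of the 82 probe sets (73.2%) the 95% interval of the change lay within 0.32 of 0 on the log2 scale, and for 74 (90.2%) within 1.5-fold in either direction. The narrower limit is called the inner limit below. Over all tested probe sets these shares were 22.1% and 54.8%. Most ribosomal protein probe sets were bright, and bright probe sets of other genes were measured more closely too, with a median SE of 0.07 against 0.18 over all tested probe sets. Among the 58 members with a mean log2 signal of 14 or more, 54 (93.1%) had an interval within the inner limit and 58 (100%) within 1.5-fold. Among the 2037 other probe sets at or above that level these shares were 86.5% and 99.4%. These others were less bright, with a median log2 signal of 14.77 against 15.95 for the members, so the shares are not compared at equal signal. The 24 dimmer members were measured less well, with 6 (25%) within the inner limit and 16 (66.7%) within 1.5-fold.

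**Figure D1:**
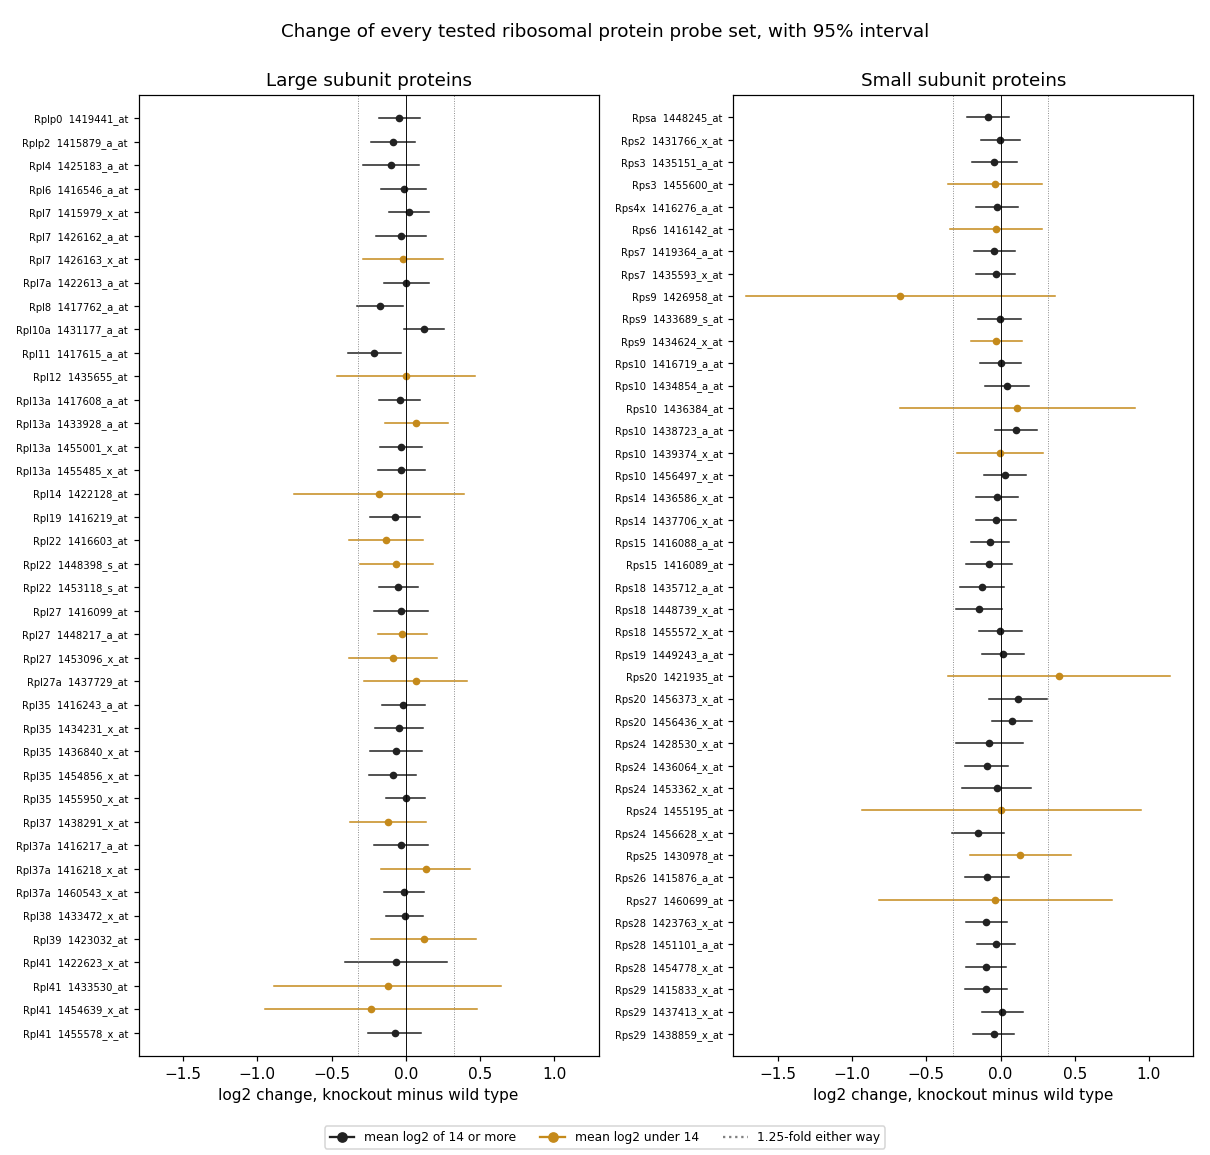
Log2 change (knockout minus wild type, x axis) of each of the 82 tested ribosomal protein probe sets, with its 95% interval from the limma fit of 3 arrays per group, for the large subunit (left) and the small subunit (right). Black marks a mean log2 signal of 14 or more, ochre a lower one, and dotted lines the inner limit of 0.32. The interval stays between the dotted lines for 54 of the 58 black probe sets and 6 of the 24 ochre ones.

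**Figure D2:**
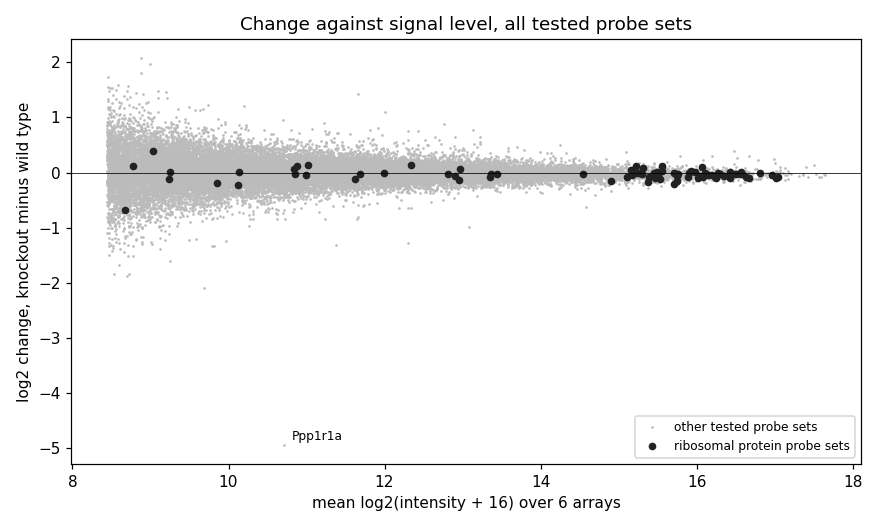
Log2 change (knockout minus wild type, y axis) against mean log2 signal over the 6 arrays (x axis) for all 26999 tested probe sets in grey, with the 82 ribosomal protein probe sets in black. The members gather at the bright end, at changes of -0.21 to 0.12 from a log2 signal of 14 upward, and Ppp1r1a lies far below at -4.93.

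Among the large subunit proteins, Rpl11 had the lowest p of the family. Rpl11 and Rpl5 form a particle with 5S rRNA that joins the large subunit and, when ribosome assembly fails, binds Mdm2 and releases p53. Its log2 signal was 15.72, 15.56 and 15.51 on the knockout arrays, against 15.67, 15.84 and 15.92 on the wild-type arrays. Knockout replicate 1 lay above wild type replicate 1, so the groups overlapped, and the change was -0.21 (SE 0.08, 95% interval -0.39 to -0.03, limma adjusted p = 0.988). Rpl5 is not named with values here. The p53 targets and regulators that this route acts on, in a list of 13 tested probe sets of 8 genes, held 0 called in either direction and had a median change of 0.06, with 9 above 0. Their smallest p values were those of Sesn2 (change 0.79, SE 0.41) and Trp53inp1 (0.24, SE 0.15).

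Rpl8 lies next to the peptidyl transferase centre, where peptide bonds form. Its log2 signal was 15.39, 15.21 and 15.27 on the knockout arrays, against 15.40, 15.46 and 15.54 on the wild-type arrays. All knockout values were below all wild-type values, with knockout replicate 1 just under wild type replicate 1. The change was -0.17 (SE 0.07, 95% interval -0.33 to -0.02, limma adjusted p = 0.988). Rpl8 shares chromosome 15 with Ppp1r1a, 277 of the 490 measured genes of that chromosome away from it, and the other member there, Rpl37, is 482 genes away and had a change of -0.12 (SE 0.12). Rpl37 falls outside the rule for naming genes and was chosen after its values were seen.

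Rpl10a forms the stalk that helps the used tRNA leave the ribosome. It had the lowest p among the members above 0. Its log2 signal was 15.61, 15.59 and 15.66 on the knockout arrays, against 15.50, 15.45 and 15.54 on the wild-type arrays. These groups did not overlap, and the change was 0.12 (SE 0.06, 95% interval -0.01 to 0.25, limma adjusted p = 0.988). It was the 1 member whose knockout values all lay above the wild-type values (1.22% of the 82, against 4.97% of all tested probe sets).

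The P stalk recruits the GTP-hydrolysing translation factors, and 3 of its 4 genes were measured. Rplp0, the stalk's base, had log2 signals of 15.52, 15.42 and 15.50 in knockout, against 15.56, 15.48 and 15.53 in wild type, with a change of -0.04 (SE 0.06). Rplp2, one of the acidic stalk proteins, had a change of -0.08 (SE 0.07). Rpl12, which sits beside the stalk, was dim and had a change of 0.0003 (SE 0.21), so its 95% interval was wide, from -0.46 to 0.46. All 3 groups of values overlapped between genotypes.

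Around the exit of the peptide tunnel, where the new chain leaves the ribosome, 10 tested probe sets of Rpl19, Rpl22, Rpl35 and Rpl39 had changes from -0.13 to 0.12. Rpl35 was read by 5 of them, at -0.09 to -0.001, and Rpl19 had a change of -0.07 (SE 0.08). Rpl39, a very small protein that lines the tunnel, had the highest change of this group, 0.12 (SE 0.16). Of the 10, 9 were below 0 and 0 were called.

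Rpl22 is dispensable in mice, where it represses its own paralog Rpl22l1 by binding that mRNA, so the pair can be read side by side. The brightest probe set of Rpl22 had log2 signals of 15.16, 15.12 and 15.14 on the knockout arrays, against 15.22, 15.18 and 15.17 on the wild-type arrays. The groups did not overlap, by a margin far smaller than the SE, and the change was -0.05 (SE 0.06, limma adjusted p = 0.988). The other 2 probe sets of Rpl22 had changes of -0.13 (SE 0.11) and -0.06 (SE 0.11), with groups that overlapped. Rpl22l1, whose symbol falls outside the family's symbol rule, had log2 signals of 15.24, 15.12 and 15.25 on the knockout arrays, against 15.05, 15.05 and 15.04 on the wild-type arrays. All 3 knockout values were higher, as for 4.97% of all tested probe sets, and the change was 0.16 (SE 0.06, limma adjusted p = 0.988). Rpl22l1 had the smallest p of the 15 tested probe sets in its list. Neither gene passed, and a link between them was not tested.

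**Figure D3:**
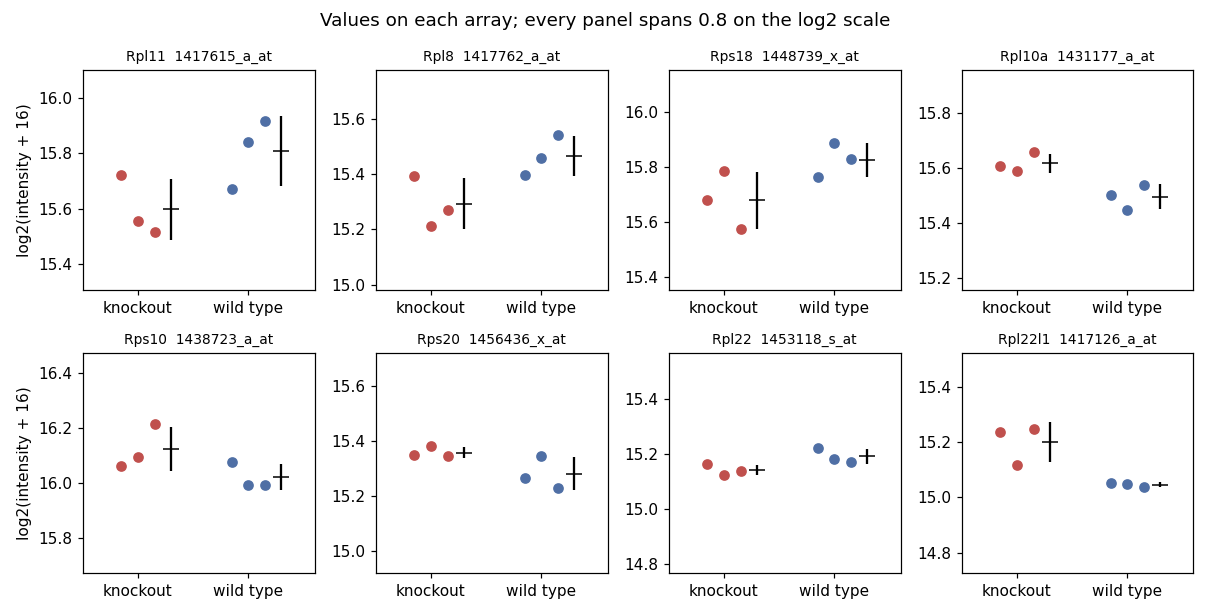
Log2 signal on each array (y axis) of 7 ribosomal protein probe sets and of the paralog Rpl22l1, knockout (red) left of wild type (blue). Points are arrays, black marks are the mean ± SD of 3 arrays, and every panel spans the same range. Rpl8, Rpl10a, Rpl22 and Rpl22l1 do not overlap between genotypes, and every distance between group means is at most 0.21.

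The small subunit had 42 tested probe sets of 19 genes, 30 of them below 0, with a median change of -0.03. The large subunit had 40 of 22 genes, 32 of them below 0, with a median of -0.04. At the mRNA channel and the decoding centre, 12 tested probe sets of Rps2, Rps3, Rps14, Rps15, Rps26, Rps28 and Rpsa had changes from -0.10 to -0.003. Rps15, whose tail reaches toward the decoding centre, had log2 signals of 16.01, 16.01 and 16.02 in knockout, against 16.09, 16.03 and 16.13 in wild type at the first of its 2 probe sets. These groups did not overlap, at a change of -0.07 (SE 0.06), and at its other probe set the change was -0.08 (SE 0.07) with overlap. Rpsa, which also gives rise to the laminin receptor, had a change of -0.09 (SE 0.06). Rps26 and Rps28, at the channel's exit, had changes of -0.09 (SE 0.07) and, over 3 probe sets of Rps28, -0.10 to -0.03.

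In the head of the small subunit, Rps18 was read by 3 tested probe sets, of which 0 passed. The first had log2 signals of 15.68, 15.78 and 15.58 in knockout, against 15.76, 15.89 and 15.83 in wild type, a change of -0.15 (SE 0.07). The second had 15.50, 15.42 and 15.48 in knockout, against 15.52, 15.56 and 15.69 in wild type, a change of -0.12 (SE 0.07). The third, about as bright, had a change of -0.001 (SE 0.06). The range over the 3 was 0.15, and differences between probe sets were not tested.

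Rps10 and Rps20, both proteins of the small subunit's head, are described for their small p values or wide range among the members above 0. The 3 tested probe sets of Rps20 had changes of 0.08 (SE 0.06), 0.12 (SE 0.09) and 0.40 (SE 0.34). The last was dim, at 9.42, 8.64 and 9.61 in knockout, against 8.91, 8.76 and 8.82 in wild type, with knockout replicate 2 below all 3 wild-type values. The 6 probe sets of Rps10 had changes from -0.005 to 0.11, and its brightest had 16.06, 16.09 and 16.21 in knockout, against 16.08, 15.99 and 15.99 in wild type (change 0.10, SE 0.07).

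Rps6, the target of the S6 kinases, kept 1 tested probe set. Its log2 signal was 11.51, 11.76 and 11.76 on the knockout arrays, against 11.78, 11.88 and 11.46 on the wild-type arrays. The groups overlapped widely, with a change of -0.03 (SE 0.14, 95% interval -0.34 to 0.28). A list of genes with Rps6k symbols and genes linked to mTORC1 had 33 tested probe sets of 17 genes. It held 0 called in either direction and had a median change of -0.03. The smallest p values in this list were those of Rps6kc1 (change -0.33, SE 0.15) and Mtor (-0.51, SE 0.34). Rps6kc1 entered by its symbol, which does not show that it phosphorylates S6.

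The remaining named members did not pass either. Rpl38, which in mice is needed for translation of Hox mRNAs, had log2 signals of 16.83, 16.79 and 16.80 in knockout, against 16.78, 16.83 and 16.83 in wild type, the narrowest interval of the family (change -0.01, 95% interval -0.13 to 0.12). Rps19, the gene most often mutated in Diamond-Blackfan anaemia in humans, had a change of 0.02 (SE 0.07). Among the reference genes, 4 probe sets of Rpl13a had changes of -0.04 to 0.07. Rps25, a protein of the small subunit's head that some viral RNAs need for translation, had a change of 0.13 (SE 0.16), and Rpl27a one of 0.07 (SE 0.16).

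Several genes were assigned more than 1 probe set, which allows a comparison within the gene as annotated. Whether a probe set also reads other transcripts was not tested. Of 18 genes with more than 1 tested probe set, 11 had all changes below 0, 1 (Rps20) had all above 0 and 6 were mixed. The range within a gene had a median of 0.10, and of 0.05 over the 14 genes with more than 1 bright probe set. It was widest for Rps9, Rps20, Rpl41, Rpl37a and Rps24, at 0.67, 0.32, 0.17, 0.17 and 0.16. One dim probe set of Rps9 gave the lowest change of the family, -0.67 (SE 0.47), with log2 signals of 7.24, 9.14 and 8.62 in knockout, against 9.01, 8.996 and 9.02 in wild type. Knockout replicate 1 set that value: without it the change was -0.13, and the 2 brighter probe sets of Rps9 had changes of -0.03 and -0.01. Rps24, which is alternatively spliced, had 4 of 5 probe sets below 0, from -0.15 to -0.03, and a dim one at 0.01 (SE 0.43). Rpl41, the smallest ribosomal protein, had 2 bright probe sets, each with a change of -0.07 (SE 0.16 and 0.08), and 2 dim ones at -0.12 (SE 0.35) and -0.23 (SE 0.33).

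Most members lay slightly below 0. Of the 82, 62 (75.6%) had a change below 0, against 49.1% of all tested probe sets and 59.99% of the 2037 other probe sets with a log2 signal of 14 or more. Of the 58 members at or above that level, 47 (81.0%) were below 0. These members were brighter, with a median log2 signal of 15.95 against 14.77 for the other probe sets. All 3 knockout values lay below all 3 wild-type values for 7 members (8.54%), against 4.91% of all tested probe sets and 5.99% of the other bright ones. All 7 were bright, which makes 12.1% of the 58 bright members. These 7 were single probe sets of Rpl8, Rpl22, Rps15, Rps18, Rps24, Rps28 and Rps29, with changes of -0.17 to -0.05. Of the 39 tested members with an identifier ending in _x_at or _s_at, 84.6% were below 0, against 67.4% of the 43 others. Members share arrays and cannot be counted as independent.

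The lean varied with the arrays included. Each member was set against its own mean over the 6 arrays, and the median of these deviations was -0.01, -0.06 and 0.02 on the knockout arrays, against -0.01, 0.02 and 0.04 on the wild-type arrays. Knockout replicate 2 was the lowest of the 6 arrays for 39 members, and wild type replicate 3 the highest for 30. The bright members alone had medians of 0.01, -0.06 and 0.01 in knockout, against -0.02, 0.01 and 0.04 in wild type. The bright probe sets of other genes had medians of 0.05, -0.06 and -0.02 in knockout, against 0.004, -0.003 and 0.03 in wild type. These other probe sets were thus low on knockout replicate 2 as well. Without knockout replicate 2, 43 of the 82 members were below 0 and their median change was -0.003, and without wild type replicate 3, 47 were below 0 and the median was -0.02. Leaving out each of the other 4 arrays in turn left 55 to 63 below 0, with medians of -0.05 (without knockout replicate 3) to -0.04 (without wild type replicate 2). After quantile normalization of the arrays, 52 were below 0, with a median of -0.02.

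**Figure D4:**
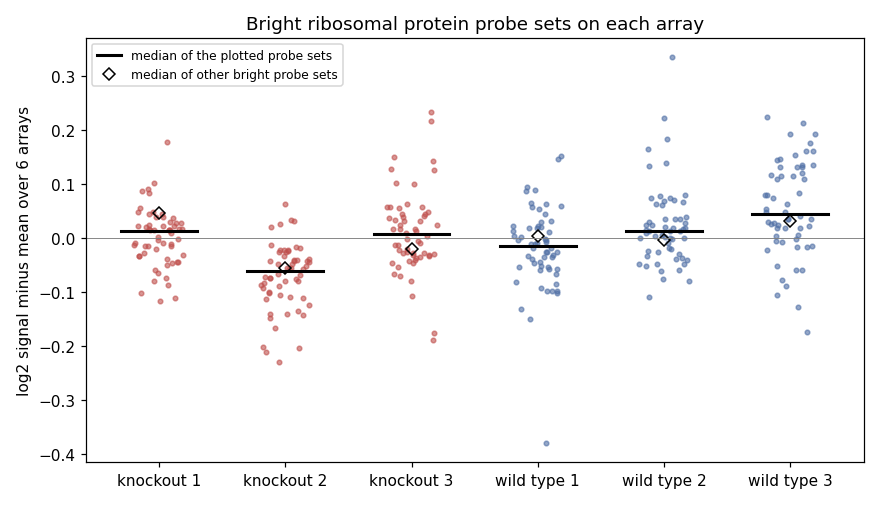
Log2 signal of the 58 ribosomal protein probe sets with a mean of 14 or more, each minus its own mean over the 6 arrays (y axis), for knockout arrays (red, left) and wild-type arrays (blue, right). Black bars are medians of the plotted probe sets and open diamonds medians of the 2037 other probe sets with a mean of 14 or more. Bars and diamonds are both lowest on knockout replicate 2, at -0.06.

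Markers of cell types and RNA quality are given for the same arrays. The 3′ over 5′ signal ratio of the beta-actin control probe sets was 1.18 to 1.21 in knockout and 1.24 to 1.297 in wild type, without overlap. The same ratio for Gapdh was 0.821 to 0.829 in knockout and 0.809 to 0.880 in wild type, with overlap. Of the neuronal marker probe sets, 18 of 21 were below 0, and mean log2 signals did not overlap between genotypes, as given above. Of 22 choroid plexus and ependymal probe sets 19 were above 0 (mean log2 signal 12.004 to 12.68 in knockout and 11.63 to 12.32 in wild type, with overlap), and of 18 meningeal ones 17 were (11.18 to 11.49 in knockout and 10.89 to 11.14 in wild type). Of 25 oligodendrocyte probe sets 20 were below 0 (14.20 to 14.29 in knockout and 14.2885 to 14.41 in wild type). Of the astrocyte, microglia and endothelial or mural probe sets, 17 of 30, 8 of 15 and 9 of 14 were above 0. The 1 tested red blood cell marker, Alas2, had 9.95, 10.12 and 9.64 in knockout, against 8.45, 9.41 and 9.10 in wild type. None of these marker probe sets was called. Their part in the ribosomal protein values was not tested, and in RNA of whole tissue, fewer cells of a type and less RNA per cell cannot be told apart.

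Related groups of the translation machinery are given beside the family for scale. Other TOP mRNAs, such as those of elongation and initiation factors, had 70 tested probe sets of 28 genes, with 0 called, 41 below 0 and a median change of -0.03. Their smallest p values were those of Snhg8, a small nucleolar RNA host gene (change -0.23, SE 0.08), and Nap1l1, a histone chaperone (-0.18, SE 0.08). Other initiation, elongation and termination factors, listed with regulators such as Eif4ebp2, had 66 probe sets of 21 genes, with 0 called and a median of -0.0008. The smallest p values were those of single probe sets of Eif3a (-0.36, SE 0.10) and Eif5 (-0.23, SE 0.08). Other probe sets of Eif3a had changes of 0.03 (SE 0.08) and 0.08 (SE 0.16), and another of Eif5 had -0.11 (SE 0.07). Mitochondrial ribosomal proteins, which build the separate ribosome of mitochondria, had 137 probe sets of 76 genes, with 0 called, 66 below 0 and a median of 0.01. The smallest p values among them were those of Mrpl34 (0.26, SE 0.10) and Mrpl3 (0.25, SE 0.10). Ribosome biogenesis factors had 83 probe sets of 44 genes, with 0 called, 52 below 0 and a median of -0.06, and the smallest p values were those of Rrp12 (-0.70, SE 0.21) and Wdr12 (0.74, SE 0.28). Paralogs and other relatives outside the family's symbol rule had 15 probe sets of 8 genes, with 0 called, 3 below 0 and a median of 0.06, and beside Rpl22l1 the smallest p was that of Rrbp1, a ribosome-binding membrane protein (1.06, SE 0.60), whose value rested on a low wild type replicate 1. It had 9.22, 9.28 and 9.28 in knockout, against 6.53, 9.15 and 8.94 in wild type. Of 100 tested probe sets with several symbols, of which at least 1 followed the rule, 0 were called, 65 were below 0 and the median change was -0.02.

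Changes of genes with and without a pyrimidine motif are given side by side. The 24 tested genes with at least 1 motif near an annotated start had a median change of -0.03, taking each gene's median over its probe sets, with 18 below 0. The 12 tested genes without one had a median of -0.04, with 10 below 0. Their ranges were -0.21 to 0.13 with a motif and -0.18 to 0.12 without one.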

How the data were processed

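The authors deposited linear intensity values per probe set, from 0.873 to 242763. No source used here names the software behind them. A mean trimmed by 2% at both ends gave 2500.01 for each of the 6 arrays, which shows that the authors had scaled the arrays alike. The platform annotation assigned 1 symbol to 34958 probe sets. Another 932 carried several symbols, and 9211 carried no symbol. The RefSeq table held the gene ID of 34754 of the first kind and changed 0 symbols.

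Values were transformed as log2(intensity + 16). The 64 control probe sets and the 40% with the lowest mean (log2 8.44) were left out. The genotypes were tested two-sided with limma (version 3.58.1, R 4.3.3), with genotype as the model's single term and variances moderated along intensity (Benjamini-Hochberg over 26999 probe sets, threshold 0.05). The fit was tested on simulated data, where the pass marks and the noise model were revised after first runs missed the original recovery mark, so that test is no independent check. The 95% intervals are those of single probe sets. The number of arrays limits precision, and no detection calls were used.

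Members, gene lists and tests were chosen with earlier results of these data known, and the fold limits, the log2 level of 14 and the motifs after values were seen. The naming rule took the 12 members of smallest p in each direction, the 5 genes with the widest range, fixed role lists and 2 genes of each other list. Motif windows came from RefSeq promoters of GRCm38.p6. Alternatives were other pseudocounts, filters, scalings, variance models and probe set choices, the replicate block and left-out arrays.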

Additional observations from a re-analysis of the deposited data

How the results depend on the processing

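Under all 21 alternatives run, 0 ribosomal protein probe sets or genes were called by limma in either direction. The lowest adjusted p among them over these alternatives was 0.151, for Rpl11 without replicate 1 of both groups (change -0.35). Between 0 and 2 were higher and 0 and 6 lower at an unadjusted limma p under 0.05. Shares over all tested probe sets were not taken under each alternative, so these counts have no background beside them. One alternative adds the 100 tested probe sets with several symbols, of which 2 were higher and 4 lower at that threshold. In that fit the shares of all tested probe sets were 2.17% and 2.21%. The median change of the members stayed below 0 in 21 of 21. It ran from -0.05 without knockout replicate 3 to -0.003 without knockout replicate 2, against an SD between arrays of 0.03. The fits without an intensity trend and with replicate blocks leave every change as it was, so neither could move a median or a sign. Leaving out _x_at and _s_at members, or including probe sets with several symbols, reuses the main fit, so their 0 calls follow from it. In 1044 comparisons of 58 named probe sets (or their genes) with their values as reported, 0 were called and 80 changed sign. Ppp1r1a passed in 19 of 19, at -5.06 to -4.12. Over all tested probe sets, the count lower was 3 and became 1 without an intensity trend, 7 when both first arrays were left out and 1 after averaging probe sets by gene. The count higher was 0 and became 7 when both first arrays were left out. Omitting single arrays gave 0 to 2 higher, the 2 arising without knockout replicate 1. The cause of these changes was not tested. No label pairs the samples, and deviations of same-numbered arrays correlated at 0.24, 0.05 and 0.10. Those of differently numbered arrays of the 2 genotypes correlated at -0.16 to 0.11. A fit with replicate blocks called 7 probe sets higher and 0 members (median change -0.03). Including probe sets with several symbols was chosen after seeing the data. The median SE was 0.07 over bright members and 0.15 over dimmer ones, which limits what dim probe sets can show.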
